A study of Mus musculus with 2 samples.

Results

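Genes that carry, bind, export or import lipids, 9 in all, were described across the cell classes of a single-cell RNA-seq study of the adult mouse brain: Apoe, Clu and Apod, Abca1 and Abcg1, Fabp7, Fabp5 and Fabp4, and Mfsd2a. They were taken by symbol from the feature list, where 9 of 9 were found among 25906 genes. The study set a library from mice with 1 LacZ allele at the interleukin-34 locus (IL34LacZ/+, the control) beside a library from mice with LacZ on both alleles (IL34LacZ/LacZ, the mutant), each made from whole brain sorted for astrocytes and endothelial cells. Both libraries therefore carry at least 1 LacZ allele, and neither comes from mice with 2 unmodified alleles. The labels give neither the number of mice in a library nor the sort markers. With 1 library per genotype there was no test of the genotype, and every interval below covers counting error within a library only.

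Lipids leave and enter brain cells mostly on protein carriers. Apolipoprotein E is the main apolipoprotein of brain lipoproteins, clusterin (Clu) is a second apolipoprotein and extracellular chaperone, and apolipoprotein D is a small lipocalin that binds arachidonic acid and other hydrophobic ligands. ABCA1 and ABCG1 are membrane transporters that move cholesterol and phospholipid out of the cell onto such particles. The fatty acid binding proteins hold fatty acids in the cytosol, FABP7 being the brain form of radial glia and astrocytes, FABP5 a widely expressed form and FABP4 the form of adipocytes and of capillary endothelium in peripheral tissues. MFSD2A carries lysophosphatidylcholine with docosahexaenoic acid across the blood-brain barrier, and it is known in brain endothelium for keeping vesicular transport low.

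After filters on depth, genes and mitochondrial share, 1665 cells remained in the IL34LacZ/+ library and 1168 in the IL34LacZ/LacZ library, with medians of 8096 and 10378 unique molecular identifiers (UMIs, each standing for 1 captured transcript) per cell. Cells were placed by marker lists that hold none of the 9 genes, so a class is not defined by what is described here. The classes were endothelial-like (509 and 298 cells), astrocyte-like (245 and 113), oligodendrocyte-like (246 and 227), choroid plexus epithelium-like (351 and 258), pericyte-like (34 and 48) and a class of Slc47a1-positive border cells (59 and 55). Among the 10 genes that led each class by fold, 1 (astrocyte) to 6 (choroid plexus) were markers of that class, 0 were markers of another class and 0 were among the lipid genes. Levels are CPM, the UMIs of a gene per 1000000 UMIs of its class, and pairs of values give the IL34LacZ/+ library first. The deposited tables have no row for lacZ, and Il34 gave 166 UMIs in the IL34LacZ/+ library and 262 in the other. In the pericyte class Il34 was at 375 and 513 CPM. The Il34 tag may lie outside the changed part of the gene, so it checks nothing, and the second library is named by its label throughout. Each library also held free RNA: Ttr, the secreted transthyretin of the choroid plexus, was found outside its own class at 763 to 1580.4 CPM in the IL34LacZ/+ library and at 612 to 1029 CPM in the IL34LacZ/LacZ-labelled library, over the other 5 of these classes. The 2 libraries shared 8 cell barcodes.

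Each gene had its own place among the classes, as the plot of levels by class shows, and neighbouring classes are said to overlap where the ranges spanned by their libraries do. Among the 6 classes Apoe and Fabp7 were highest in astrocytes, Clu in choroid plexus epithelium and Mfsd2a in the endothelial class. Apod, Abcg1 and Fabp5 were highest in oligodendrocytes. Abca1 was also highest in astrocytes, but it was spread over 5 classes. Among these classes Fabp4 was found in 3 endothelial cells of 1 library and nowhere else.

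**Figure D1:**
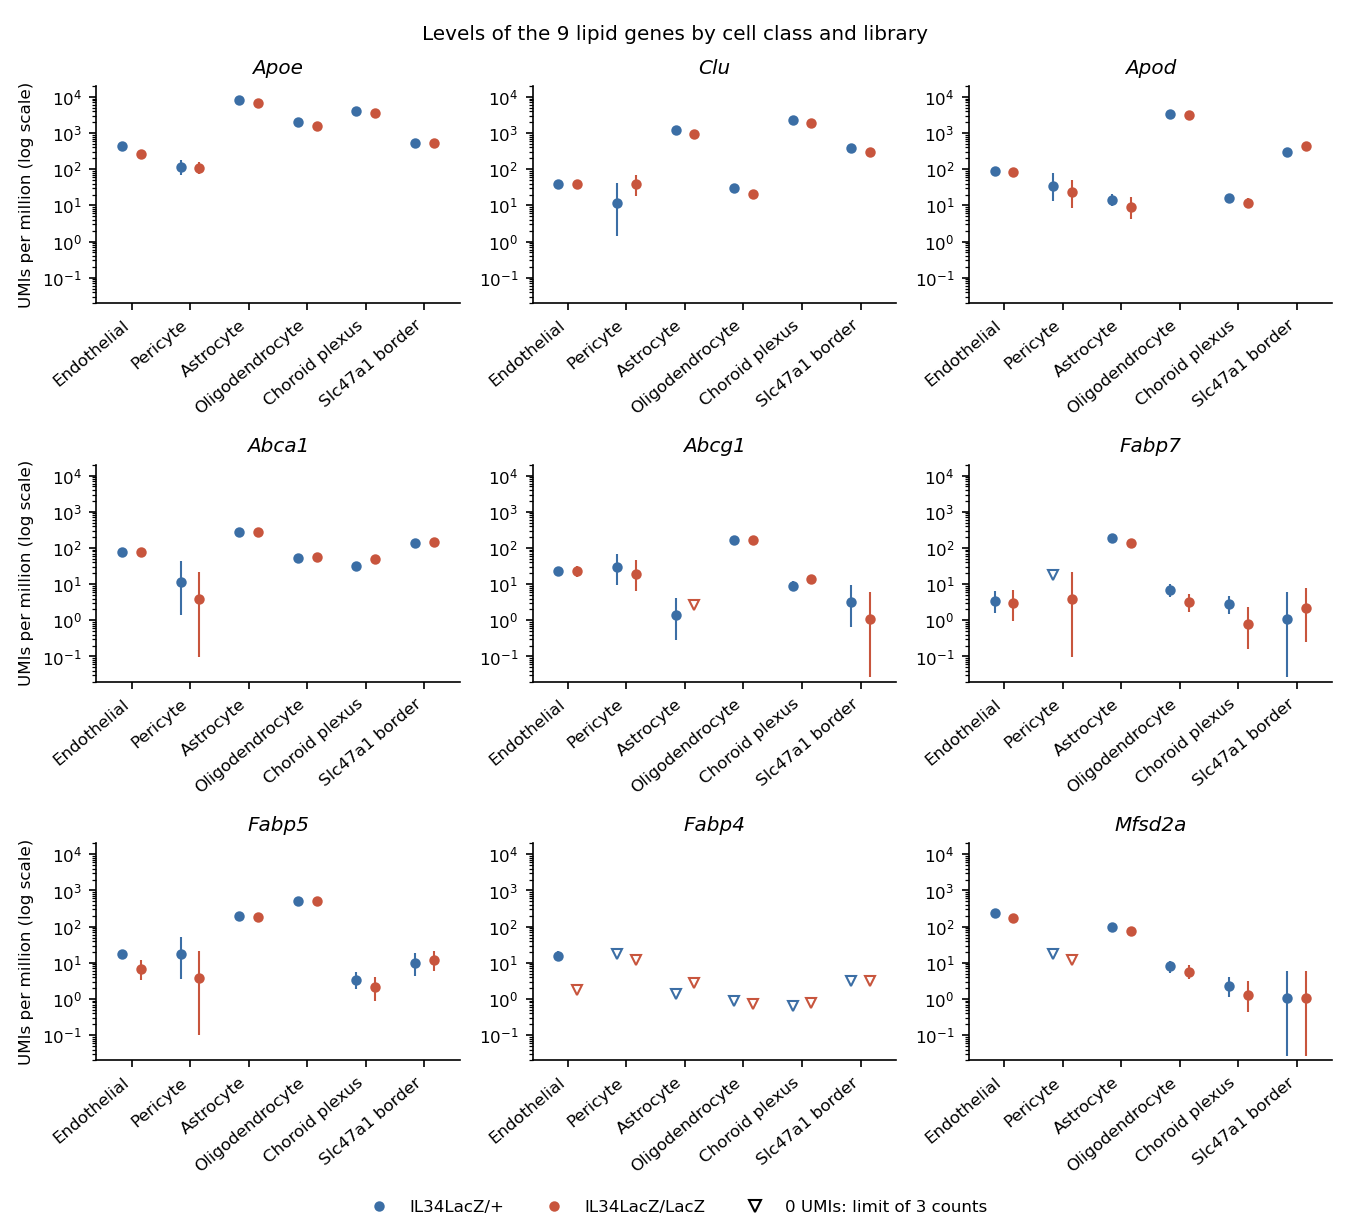
Levels of the 9 genes in CPM on a log axis, for 6 cell classes and both libraries; bars are 95% Poisson intervals and open triangles mark 0 UMIs at the limit that 3 counts would give. Apod is at 3434 and 3060.4 CPM in oligodendrocytes and at 14.2 and 9.04 CPM in astrocytes, while Apoe is lowest in pericytes, at 117 and 109 CPM.

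Apoe (chromosome 7, 19696109 to 19699188, minus strand, GRCm38) was at 8158 CPM in the astrocytes of the IL34LacZ/+ library and at 6658 CPM in those of the IL34LacZ/LacZ-labelled library. Choroid plexus epithelium followed at 4098 and 3595 CPM, then oligodendrocytes at 1969 and 1574 CPM. The border class was at 534 and 540.4 CPM, the endothelial class at 442 and 259 CPM, and pericytes at 117 and 109 CPM. No neighbours in this order overlapped between their 2 libraries, and astrocytes stood 1.93-fold above choroid plexus epithelium by the mean of the libraries. Nearly all astrocytes had an Apoe UMI (97.6% and 98.2%), as did 351 of 351 and 256 of 258 choroid plexus cells and 95.5% and 96.0% of oligodendrocytes. With each cell thinned to 1000 UMIs these shares were 81.2% and 78.8%, 95.4% and 92.6%, and 65.0% and 67.8%.

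By the gate the lowest Apoe was in pericytes, at 20 and 28 UMIs in all. This place depended on how classes were made. With classes from clusters, the 39 pericytes of the IL34LacZ/+ library were at 1731 CPM, above the endothelial (447 CPM) and border (518 CPM) classes. The 49 of the IL34LacZ/LacZ-labelled library were at 96.9 CPM, still the lowest. The pericyte class, at median depths of 4149 and 4652 UMIs, had an Apoe UMI in 41.2% and 41.7% of its cells, and the endothelial class, at 4331 and 4850.0 UMIs, in 71.5% and 58.4%. After thinning, the shares were 17.6% and 8.33% of pericytes against 32.4% and 24.5% of endothelial cells. Astrocytes held 0.480 and 0.383 Apoe UMIs per UMI of the 12 astrocyte markers. That ratio was 0.588 and 0.491 in pericytes, 2.17 and 1.87 in the endothelial class, 7.21 and 6.77 in oligodendrocytes and 13.1 and 11.9 in choroid plexus epithelium. Choroid plexus epithelium and oligodendrocytes hold Apoe too, and RNA of both was found in the endothelial class: in the IL34LacZ/+ library Ttr was at 1443 CPM there and the oligodendrocyte markers at 321 CPM. How much of the Apoe of any class was free RNA was not tested.

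The endothelial class was where Apoe differed most between the libraries. It counted 1151 UMIs (442 CPM, 95% Poisson interval 416 to 468) in the IL34LacZ/+ library and 433 (259 CPM, 235 to 285) in the IL34LacZ/LacZ-labelled library, a 1.70-fold lower level there with a log2 ratio of -0.77 (95% interval -0.93 to -0.61). The single cell with most Apoe held 3.30% and 2.77% of these UMIs, so no one cell set either level. The same direction appeared in each zone of the vessel. It appeared too in the 119 and 76 endothelial cells placed in no zone, at 394 and 268 CPM. The arterial level of the IL34LacZ/LacZ-labelled library rests on 21 UMIs, 38.1% of them in 1 cell. One cell also held 21.8% of the 174 venous UMIs of the IL34LacZ/+ library. Arterial cells were at 647 and 225 CPM (log2 ratio -1.53, -2.25 to -0.87), capillary cells at 396 and 259 CPM (-0.61, -0.85 to -0.38) and venous cells at 523 and 256 CPM (-1.03, -1.43 to -0.64), with 45 and 15, 299 and 172, and 46 and 35 cells. Within the IL34LacZ/+ library capillary cells were 1.63-fold below arterial cells, and in the IL34LacZ/LacZ-labelled library the interval of that difference included 0 (log2 0.21, -0.44 to 0.93). RNA of other classes was lower there as well, by differing amounts. In the same endothelial cells Ttr had a log2 ratio of -0.49. The summed astrocyte markers, 204 and 138 CPM with 12 of 12 found in both libraries, had one of -0.56 (-0.79 to -0.33). The summed oligodendrocyte markers, 321 and 283 CPM, had one of -0.18 (-0.35 to -0.02). The part of this RNA in the Apoe difference was not tested. In pericytes the log2 ratio was -0.64 for Ttr, 0.16 (-0.48 to 0.81) for the astrocyte markers and -0.10 (-0.98 to 0.80) for Apoe.

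Outside the endothelial class the Apoe difference was smaller. The log2 ratio was -0.29 (-0.33 to -0.25) in astrocytes, -0.32 (-0.37 to -0.27) in oligodendrocytes and -0.19 (-0.22 to -0.16) in choroid plexus epithelium, all within 1.5-fold. It was 0.02 (-0.16 to 0.20) in the border class. Among astrocytes the tenth of cells with most Apoe held 31.9% and 37.6% of its UMIs, and the median cell stood at 7173 and 4272 CPM.

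Oligodendrocytes were not uniform in either carrier they express. Klk6, a secreted protease, marks one kind of mature oligodendrocyte, and 47 of 246 and 58 of 227 cells had a Klk6 UMI. Apoe was at 904 and 889.9 CPM in the cells with Klk6 and at 2352 and 1948 CPM in those without, a 2.60-fold and a 2.19-fold lower level with Klk6. Apod went the other way in the same cells, at 5299 and 4411 CPM with Klk6 and at 2765 and 2322 CPM without, 1.92-fold and 1.90-fold higher with Klk6. The Apod contrast had nearly the same size in both libraries, and that of Apoe was smaller in the IL34LacZ/LacZ-labelled one. Cells with Klk6 were the deeper ones, with medians of 18021 and 23763 UMIs against 12558 and 14974, and a deeper cell is more likely to show a Klk6 UMI. Fabp5 did not follow the split, at 530.3 and 498 CPM with Klk6 and 509.5 and 520.3 CPM without. The share of cells with Klk6 was 19.1% and 25.6%, with exact intervals that overlap. Within cells with Klk6 the log2 ratio of Apoe between the libraries was -0.02 (-0.15 to 0.11), and without it -0.27 (-0.33 to -0.22).

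**Figure D2:**
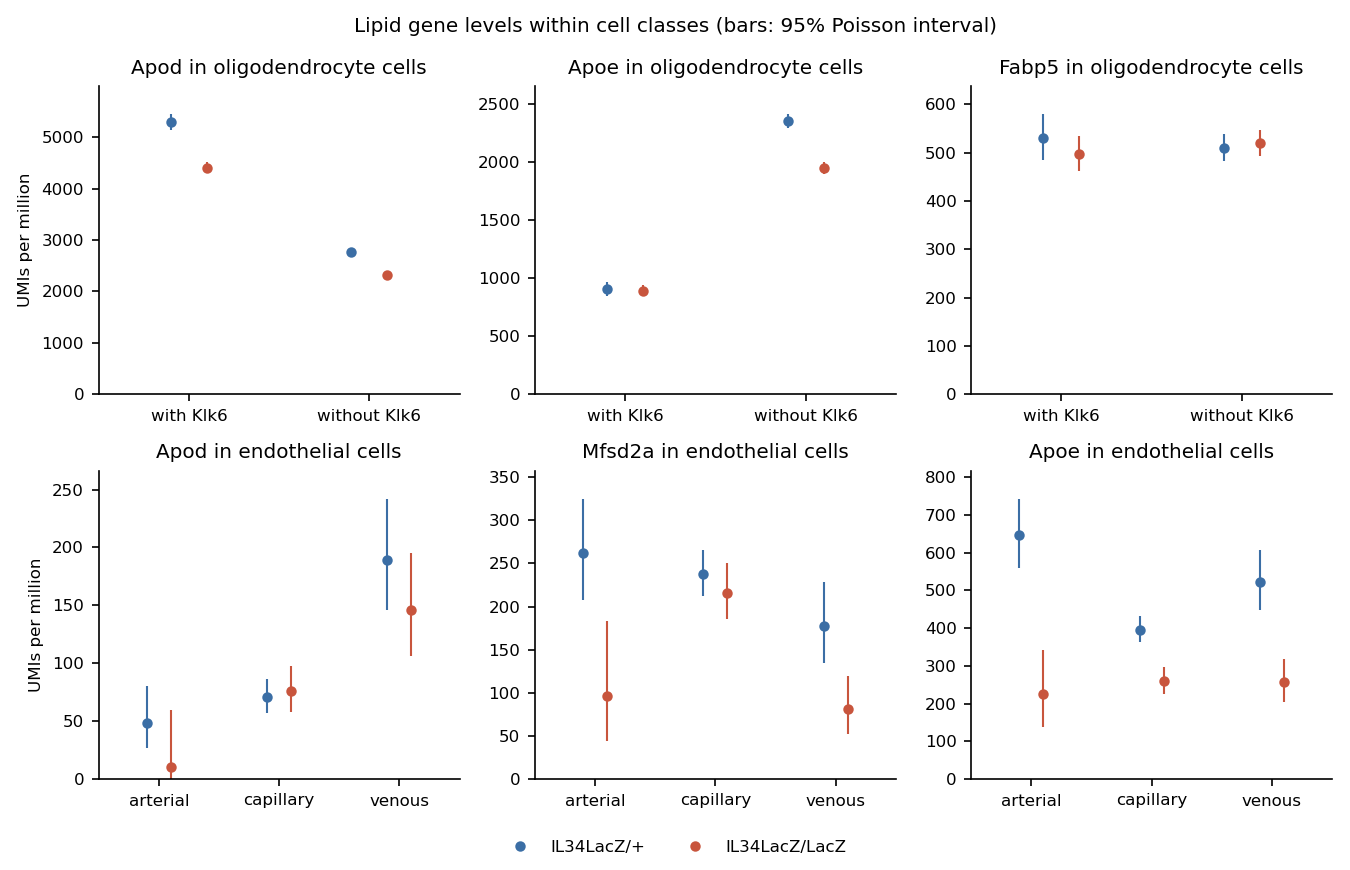
Levels in CPM (axes from 0) of 4 genes within oligodendrocytes split by Klk6 and endothelial cells split by vessel zone; points are the 2 libraries and bars 95% Poisson intervals. Apod is higher and Apoe lower in oligodendrocytes with Klk6 in both libraries, and venous endothelial cells hold more Apod (189 and 146 CPM) than capillary cells (70.6 and 75.8 CPM).

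Clu (chromosome 14, 65968483 to 65981547, plus strand) was at 2308 and 1897 CPM in choroid plexus epithelium and at 1215 and 934 CPM in astrocytes. The border class followed at 395 and 305 CPM. The endothelial class was at 40.3 and 40.1 CPM, pericytes at 11.7 and 38.9 CPM and oligodendrocytes at 29.9 and 20.6 CPM, the last of these neighbours overlapping. A Clu UMI was found in 99.4% and 99.6% of choroid plexus cells and in 86.9% and 82.3% of astrocytes, but in 15.3% and 13.1% of endothelial cells and in 30.1% and 25.6% of the deeper oligodendrocytes. Choroid plexus epithelium, astrocytes and border cells, as gated, thus carried Clu well above the level of the other classes. With classes from clusters, pericytes were at 595 CPM in the IL34LacZ/+ library, above border cells at 301 CPM. In the IL34LacZ/LacZ-labelled library they were at 32.3 CPM. Between the libraries Clu was lower in the IL34LacZ/LacZ-labelled one by less than 1.5-fold in 4 classes: the log2 ratio was -0.28 (-0.33 to -0.24) in choroid plexus epithelium, -0.38 (-0.49 to -0.28) in astrocytes, -0.37 (-0.60 to -0.15) in the border class and -0.54 (-0.97 to -0.11) in oligodendrocytes. In the border class the summed astrocyte markers were at 2555 and 1948 CPM, a log2 ratio of -0.39, and their part in the Clu difference was not tested. The border ratio did not hold under other processing: it was 0.01 (-0.19 to 0.20) with classes from clusters, 0.18 (-0.86 to 1.23) with cells thinned to 1000 UMIs and -0.83 (-1.18 to -0.49) with a stricter gate on cell class. In oligodendrocytes it was -1.58 (-1.95 to -1.21) with classes from clusters. In the endothelial class the ratio was -0.01 (-0.47 to 0.45), and 1 cell of the IL34LacZ/LacZ-labelled library held 24 of its 67 Clu UMIs.

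Clu and Apoe UMIs fell in the same astrocytes: with cells thinned to 1000 UMIs, 95.9% and 93.0% of astrocytes with Clu had Apoe, against 66.7% and 64.3% of those without Clu.

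Apod (chromosome 16, 31296192 to 31314808, minus strand) was an oligodendrocyte gene among these 6 classes, at 3434 and 3060.4 CPM there and 8.66-fold above the next class by the mean of the libraries. An Apod UMI was found in 98.0% and 99.6% of oligodendrocytes and, after thinning, in 87.4% and 85.5%. The border class was at 299 and 451 CPM, the endothelial class at 87.9 and 82.6 CPM, pericytes at 35.1 and 23.3 CPM, and choroid plexus epithelium and astrocytes overlapped at 16.3 and 11.8 and at 14.2 and 9.04 CPM. A small class of fibroblast-like cells, with 18 and 21 cells, stood above oligodendrocytes at 12262 and 9051 CPM. It lies outside the order, which took classes of at least 20 cells in both libraries.

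In endothelial cells Apod was highest in the venous zone. Venous cells were at 189 and 146 CPM, capillary cells at 70.6 and 75.8 CPM and arterial cells at 48.5 and 10.7 CPM. The arterial levels rest on 15 and 1 UMIs. In the IL34LacZ/+ library the difference of capillary from arterial cells had an interval that included 0 (log2 0.54, -0.26 to 1.44). In each library 1 venous cell held much of the venous Apod, 33.3% and 26.7% of its UMIs. The capillary level lay 2.68-fold and 1.93-fold below the venous one, and the interval of that difference left out 0 in both libraries (log2 -1.90 to -0.94 and -1.52 to -0.36). Median depths were 6226 and 8171 UMIs in venous cells and 3819 and 4158 in capillary cells. Per UMI of the 12 oligodendrocyte markers, Apod gave 0.274 and 0.292 UMIs in the endothelial class, 0.183 and 0.167 in oligodendrocytes and 0.0829 and 0.0617 in astrocytes. The share of cells with an Apod UMI was 23.8% and 25.8% in the endothelial class and 17.9% and 15.1% in choroid plexus epithelium, whose cells were deeper (medians of 12329 and 13837 UMIs).

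Between the libraries Apod passed 1.5-fold in the border class, and not in the endothelial class (log2 ratio -0.09, -0.40 to 0.22) or in oligodendrocytes. It counted 278 UMIs (299 CPM, 265 to 337) in the IL34LacZ/+ library and 425 (451 CPM, 409 to 496) in the IL34LacZ/LacZ-labelled one, 1.51-fold higher with a log2 ratio of 0.59 (0.37 to 0.82). One cell held 115 of the 425 UMIs (27.1%), and without the 2% of cells highest for Apod in each library the ratio was 0.33 (0.07 to 0.60) and no longer past 1.5-fold. With the stricter gate it was 1.23 (0.91 to 1.56). The markers of the fibroblast class, the one with most Apod, summed to 2344 and 2963 CPM in the border class, with 7 of 10 found in each library, and their part in the difference was not tested. In oligodendrocytes the ratio was -0.17 (-0.20 to -0.13), and it was alike on both sides of the Klk6 split, at -0.26 (-0.32 to -0.21) with Klk6 and -0.25 (-0.30 to -0.20) without.

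Abca1 (chromosome 4, 53030787 to 53159895, minus strand) was at 269 and 279 CPM in astrocytes, 138 and 149 CPM in the border class, 77.1 and 77.2 CPM in the endothelial class, 51.1 and 56.8 CPM in oligodendrocytes, 32.0 and 49.1 CPM in choroid plexus epithelium and 11.7 and 3.89 CPM in pericytes. No neighbours overlapped between their libraries, though in the pericyte class these levels rest on 2 and 1 UMIs. Outside the order, fibroblast-like cells were at 551 and 198 CPM and microglia-like cells at 429 and 177 CPM, the latter from 36 and 3 UMIs. Both lay above astrocytes in the IL34LacZ/+ library and below them in the other. An Abca1 UMI was found in 82.0% and 85.0% of astrocytes and in 25.7% and 25.2% of endothelial cells, against 2.94% and 2.08% of pericytes at a like depth. The library levels differed little in the endothelial class (log2 ratio 0.00, -0.33 to 0.33), astrocytes (0.05, -0.15 to 0.25), oligodendrocytes (0.15, -0.14 to 0.44) and the border class (0.11, -0.25 to 0.47). Choroid plexus epithelium was the exception among the classes of the order that had enough UMIs. It gave 151 UMIs (32.0 CPM, 27.1 to 37.5) in the IL34LacZ/+ library against 188 (49.1 CPM, 42.4 to 56.7) in the IL34LacZ/LacZ-labelled one. The latter level was 1.54-fold higher, with a log2 ratio of 0.62 (0.30 to 0.94). One cell held 21 of the 188 UMIs, and without the 2% of cells highest for Abca1 the ratio was 0.55 (0.19 to 0.91), inside 1.5-fold. Ttr took 289616 and 242743 CPM of all UMIs in these cells. With Ttr left out of the total, an alternative chosen after seeing the data, the ratio was 0.53 (0.21 to 0.85). In oligodendrocytes with Klk6, Abca1 was at 41.1 and 70.5 CPM, from 37 and 104 UMIs (log2 0.78, 0.22 to 1.36), and in those without at 54.6 and 49.3 CPM.

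Abcg1 (chromosome 17, 31057675 to 31117988, plus strand) had a quite different distribution. Oligodendrocytes were at 161 and 163 CPM, 6.65-fold above the next class, with an Abcg1 UMI in 82.9% and 90.3% of cells. Pericytes at 29.3 and 19.4 CPM, from 5 UMIs in each library, overlapped with the endothelial class at 22.6 and 22.7 CPM, and choroid plexus epithelium was at 9.10 and 13.8 CPM. Astrocytes, the class with most Abca1, gave 3 Abcg1 UMIs in 245 cells and 0 in 113 cells, and the latter allows a level of up to 2.71 CPM and a share of cells with a UMI of up to 2.65%. The border class gave 3 UMIs and 1. Abcg1 did not differ between the libraries beyond counting error in oligodendrocytes (log2 ratio 0.02, -0.14 to 0.19).

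Fabp7 (chromosome 10, 57784881 to 57788450, plus strand) was an astrocyte gene here, at 184 and 137 CPM in astrocytes and at 6.75 and 3.11 CPM in oligodendrocytes, the next class, 32.6-fold lower by the mean of the libraries. The other 4 classes lay between 0 and 3.89 CPM and overlapped with their neighbours. Only part of the astrocytes showed it: 48.2% and 48.7% had a Fabp7 UMI, against 1.77% and 1.68% of endothelial cells at lower depth and 8.54% and 4.85% of oligodendrocytes at higher depth. The tenth of astrocytes with most Fabp7 held 60.3% and 43.4% of its UMIs, and the median astrocyte had 0. Between the libraries the log2 ratio was -0.42 (-0.70 to -0.15), within 1.5-fold, but 1 cell of the IL34LacZ/+ library held 46 of 401 UMIs. Without the 2% of astrocytes highest for Fabp7 the ratio was -0.13 (-0.44 to 0.18).

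Fabp5 (chromosome 3, 10012548 to 10016607, plus strand) was at 515 and 512 CPM in oligodendrocytes and at 196 and 187 CPM in astrocytes, with 17.3 and 6.59 CPM in the endothelial class and 3.39 and 2.09 CPM in choroid plexus epithelium. The endothelial, pericyte and border classes overlapped in turn. Neuroblast-like cells, too few for the order (12 and 2 cells), stood near oligodendrocytes at 500.4 and 419.6 CPM. A Fabp5 UMI was found in 77.2% and 93.4% of oligodendrocytes and 46.1% and 48.7% of astrocytes, against 16 of 351 and 8 of 258 choroid plexus cells at a depth near that of oligodendrocytes. Thinning evened the oligodendrocytes of the libraries out, to 32.9% and 29.5%. The log2 ratio between the libraries was -0.01 (-0.10 to 0.08) in oligodendrocytes and -0.07 (-0.31 to 0.17) in astrocytes. In astrocytes it depended on the processing: it was -0.36 (-0.60 to -0.14) with classes from clusters and -0.91 (-1.91 to -0.02) with cells thinned to 1000 UMIs, intervals that include a 1.5-fold lower level. Astrocytes with Fabp7 more often had Fabp5: 62.7% and 69.1% of astrocytes with a Fabp7 UMI had a Fabp5 UMI, against 30.7% and 29.3% of those without. After thinning the shares were 27.6% and 18.8% against 13.9% and 9.28%, from 8 and 3 cells with both, so the second library counts too few for the difference to be read at a common depth. Of the stretches of 60 bases at the 3′ end of the Fabp5 transcript, 5.87% also occur in the pseudogene Gm6166, which is not in the feature list. Whether this changed the authors' Fabp5 counts was not tested. The same search found 0 shared stretches for the other 8 genes.

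Fabp4 lies on the same chromosome (chromosome 3, 10204088 to 10208576, minus strand). It gave 40 UMIs in 3 of 509 endothelial cells of the IL34LacZ/+ library and 0 in the 298 of the IL34LacZ/LacZ-labelled library, which allows a share of cells with a UMI of up to 1.01% there. No other of the 6 classes held a UMI. One cell of 2852 UMIs held 38 of the 40. It had 7 of the 12 endothelial markers, among them 4 UMIs of Cldn5 and 12 of Ly6c1, and also 12 UMIs of Cd36, a fatty acid translocase, which were all the Cd36 UMIs of that endothelial class. The same cell held 10 of the 45 Fabp5 UMIs and 4 of the 7 of Lpl, lipoprotein lipase, and 0 of Mfsd2a and of the brain endothelial transporter Slco1a4. The other 2 cells had 1 Fabp4 UMI each and 3 and 33 of Slco1a4. The difference in Fabp4 between the libraries is that of 1 cell.

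**Figure D3:**
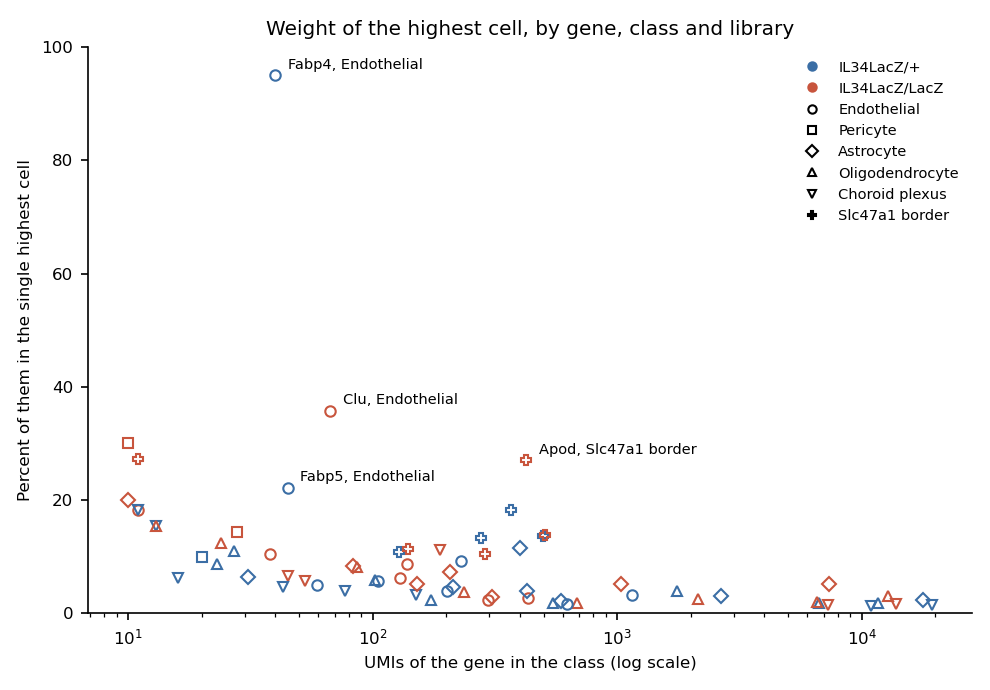
Percent of a gene's UMIs held by the single highest cell, against the gene's UMIs in the class on a log axis, for each gene and library with at least 10 UMIs in 1 of the 6 cell classes. Among these points Fabp4 in the endothelial class is highest, with 38 of 40 UMIs in 1 cell, followed by Clu in endothelial cells at 35.8%.

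Mfsd2a (chromosome 4, 122946850 to 122961188, minus strand) was at 239 and 177 CPM in the endothelial class and at 97.6 and 75.0 CPM in astrocytes, 2.41-fold lower by the mean of the libraries. Oligodendrocytes were at 7.92 and 5.75 CPM, choroid plexus epithelium at 2.33 and 1.31 CPM, the border class at 1 UMI in each library and pericytes at 0 UMIs in both, which allows up to 17.6 and 11.7 CPM. A Mfsd2a UMI was found in 53.6% and 50.7% of endothelial cells and in 40.4% and 36.3% of astrocytes, against 8.54% and 9.69% of the deeper oligodendrocytes. After thinning the first 2 pairs were 23.2% and 18.8%, and 8.16% and 5.31%. The endothelial class held 0.0104 and 0.00894 Mfsd2a UMIs per UMI of the 12 endothelial markers. Astrocytes held 1.84 and 2.86 Mfsd2a UMIs per endothelial-marker UMI, those markers being at 53.2 and 26.2 CPM there.

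In the endothelial class Mfsd2a was lower in the IL34LacZ/LacZ-labelled library by less than 1.5-fold, 624 UMIs against 296 (log2 ratio -0.43, -0.64 to -0.23). Capillary cells, the largest zone, were at 238 and 216 CPM, with a ratio whose interval included 0 (-0.14, -0.41 to 0.13). Venous cells were at 177 and 81.1 CPM (-1.13, -1.87 to -0.43) and arterial cells at 262 and 96.2 CPM (-1.44, -2.62 to -0.45), the last from 81 and 9 UMIs. The lower level in venous than in capillary cells was 1.34-fold in the IL34LacZ/+ library and 2.67-fold in the other. Whether the zones differ in their response was not tested. In astrocytes the Mfsd2a ratio was -0.38 (-0.76 to -0.01). It kept its sign in all settings, but whether its interval left out 0 depended on the processing. The interval was -0.61 to 0.07 with up to 30% mitochondrial UMIs, -0.70 to 0.06 with the stricter gate and -2.46 to 0.44 with thinning. With classes from clusters it was -0.81 to -0.09.

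Over the classes of at least 20 cells in both libraries, 24 pairs of gene and class had enough UMIs to be called, and 3 were called. Enough meant at least 100 UMIs over both libraries and 20 CPM in one. Fibroblast-like and microglia-like cells were not counted. A call needs a change of over 1.5-fold between the libraries and an interval on 1 side of even. In the endothelial class 5 of the 9 genes were measured and 1 was lower, Apoe; over all 6084 genes measured there, 2.68% were higher and 4.57% lower. In astrocytes 6 of 9 were measured and none was called, against 1.52% higher and 3.40% lower of 5475 genes. In choroid plexus epithelium 3 of 9 were measured and 1 was higher, Abca1, against 4.21% higher and 0.642% lower of 4514 genes. In oligodendrocytes 6 of 9 were measured and none was called, against 1.15% and 1.36% of 6598 genes. In the border class 4 of 9 were measured and 1 was higher, Apod, against 2.85% and 5.57% of 3749 genes. With so few lipid genes measured per class, 1 call is no result about the set. The median log2 ratio of the measured lipid genes was -0.09, -0.34, -0.19, -0.09 and 0.06 in these 5 classes in turn, beside -0.01, -0.04, 0.05, -0.05 and -0.07 over all measured genes. In the pericyte class none of the 9 passed the filter on low counts.

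**Figure D4:**
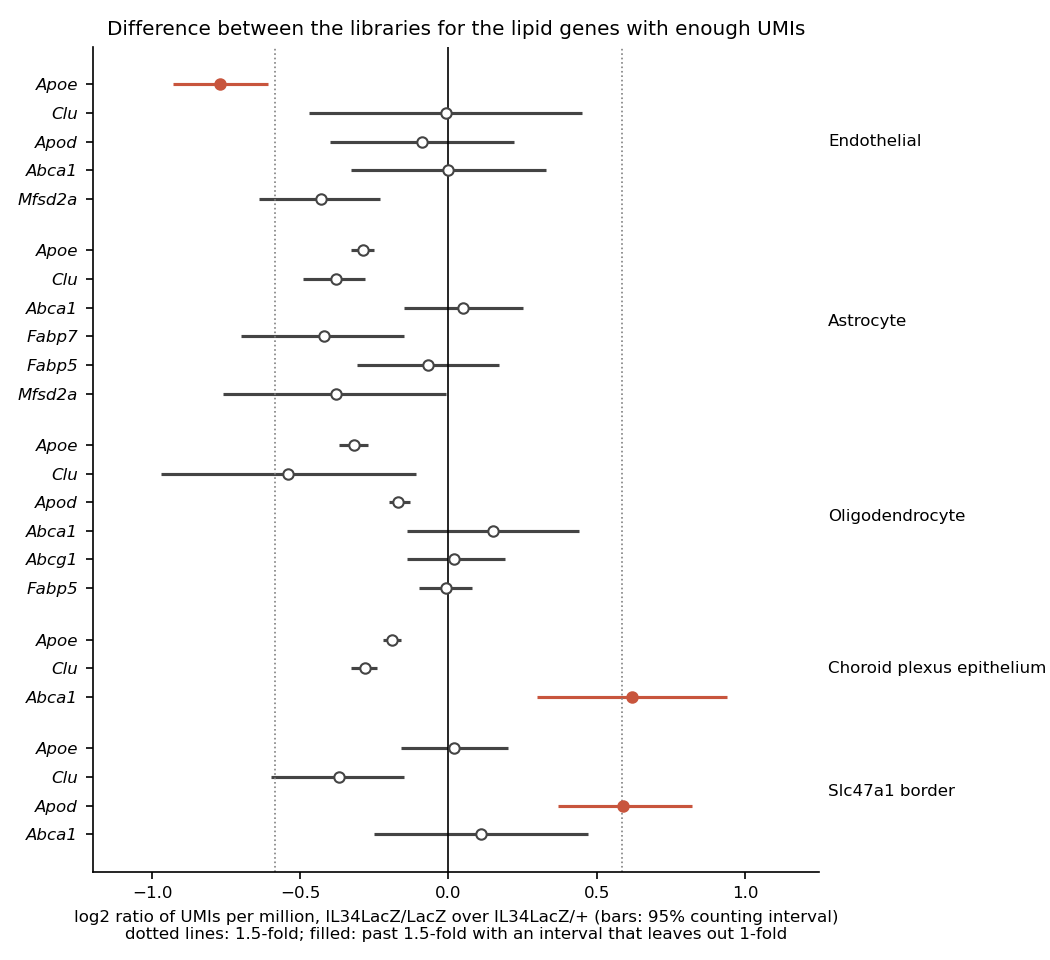
Log2 ratio of CPM, the IL34LacZ/LacZ-labelled library over the IL34LacZ/+ library, for the 24 measured pairs in classes of at least 20 cells. Bars are 95% counting intervals, dotted lines mark 1.5-fold and filled points are the 3 called. Apoe in the endothelial class lies at -0.77, and Abca1 in choroid plexus epithelium and Apod in border cells lie at 0.62 and 0.59.

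The related lists held 54 other lipid genes. Of them 21 were measured in the endothelial class, 17 in astrocytes, 16 in choroid plexus epithelium, 21 in oligodendrocytes and 11 in the border class, and 1 was called in all: Abca2, an ABC transporter of lysosomal and myelin lipid, was lower in the astrocytes of the IL34LacZ/LacZ-labelled library (51.8 and 33.4 CPM from 113 and 37 UMIs, log2 ratio -0.63, -1.21 to -0.08). None of the measured lipoprotein receptors, fatty acid uptake and activation genes, LXR and PPAR genes, lipid droplet and lysosomal genes or caveolar genes was called in any of the 5 classes. Over all measured genes, 1.15% to 4.21% were called higher and 0.642% to 5.57% lower, by class. With 11 to 21 related genes measured per class, so few calls are no result about these lists. The median of the 21 endothelial genes was -0.23, beside -0.01 over all genes, and that of the 5 caveolar genes there, all measured, was also -0.23.

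Genes with the most similar profiles were taken over 12 class and library sums, which share their depth and free RNA, among 9679 genes. The Pearson correlations of log2(CPM + 10) are a description. For Apoe the nearest were Nat8f1 (0.968), Pdk2 (0.953) and Fbxo44 (0.938). For Clu they were Pdlim4 (0.984), Tuba4a (0.982) and Pnp (0.970), and for Apod D16Ertd472e (0.974), Stard3nl (0.968) and Cldn11 (0.967). Abca1 had Syn3 (0.961), Rhoq (0.923) and Trim8 (0.922), and Abcg1 had Sytl2 (0.973), Plk3 (0.971) and Pim3 (0.960). Fabp7 had Mlc1 (0.997), Gm44895 (0.995) and the endfoot water channel Aqp4 (0.995), the last one of the markers that define the astrocyte class. Fabp5 had C230086J09Rik (0.982), Gm48967 (0.982) and Olig2 (0.981), and Mfsd2a had Nrros (0.993), Itga6 (0.981) and Vsir (0.976). No profile was compared for Fabp4.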

How the data were processed

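The deposited matrices hold the authors' whole-number UMI counts per gene and barcode. The file headers name Cell Ranger 7.1.0, the submitters' processing notes give the build as mm10 (GRCm38.p6), and the labels' protocols name the 10x Genomics 3′ v3.1 kit. The 3′ ends of transcripts, not whole transcripts, are counted, so levels of different genes were not ranked. UMIs of a gene per marker UMI were compared between classes only. From 3901 and 5400 barcodes, cells with at least 1000 UMIs and 500 genes and at most 15% mitochondrial UMIs were kept (1668 and 1175). Scrublet (in scanpy 1.11.5) removed 3 and 7 of them (0.180% and 0.596%), so the guard against doublets was mainly the gate: a cell took the class with the highest share of its marker list detected, at least 40%, and only if no unrelated class reached 50% of that share. A further 85 and 71 cells were mixed and 34 and 19 in no class. Within 0.1 of the share limit lay 73 and 57 cells, and of the limit on other classes 137 and 99.

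Counts were summed per class and library. CPM has exact Poisson intervals, shares have exact Clopper-Pearson intervals, and ratios have exact conditional binomial intervals, all at 95%. These cover counting error only, and 3 counts set the limit where a count was 0. The call rule was run on simulated counts with Poisson error only. It recovered 86.0% to 98.9% of the measured genes changed by 1.8-fold or 2-fold and called 0.331% to 1.33% of unchanged genes. These counts held no spread between cells or libraries beyond counting error, so they cannot show how the rule fares with such spread. Arterial and venous cells needed at least 3 markers of their zone and more of them than of the other. Capillary cells needed at least 3 capillary markers and at most 1 arterial and 1 venous marker. Median depths were 3819 and 4158 UMIs in capillary, 6052 and 4825 in arterial and 6226 and 8171 in venous cells. The part of depth in the zone contrasts was not tested. A split of the astrocytes by marker lists is not reported here. Named beside the 9 genes were called genes of the related lists and the 3 most correlated genes each. Genes, lists and rules were chosen with earlier results of these data known; the gate, zone and Klk6 rules were set after seeing the data. Positions are from GENCODE M21.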

Additional observations from a re-analysis of the deposited data

Results flagged for a closer look

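Apod moved in opposite directions in a pair of classes: its log2 ratio, the IL34LacZ/LacZ-labelled library over the IL34LacZ/+ library, was 0.59 in border cells and -0.17 in oligodendrocytes, each with a counting interval that leaves out 0. The difference between the classes was not tested, since there is 1 library per genotype. In border cells 27.1% of the Apod UMIs of the IL34LacZ/LacZ-labelled library came from 1 cell.

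In the IL34LacZ/+ library Fabp7 was higher among barcodes that passed no gate than in any class described in the text. The 34 such barcodes of the IL34LacZ/+ library held it at 1747 CPM, against 184 CPM in the astrocytes of that library. One barcode of 8115 UMIs held 137 Fabp7, 127 Apoe and 113 Apod UMIs, and 2 others held 25 and 20 Fabp7 UMIs with 121 and 195 of Apoe and 51 and 88 of Apod. All 3 held 0 Clu UMIs. In the IL34LacZ/LacZ-labelled library the 19 such barcodes held 2 Fabp7 UMIs (31.8 CPM), both in 1 barcode, against 137 CPM in astrocytes.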

How the results depend on the processing

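The results were recomputed in 10 other ways and in 1 more added after seeing the data (Ttr left out of the total). The count of lipid genes called in the endothelial class stayed at 1, Apoe, under every alternative except the one without a filter on low counts, where it was 3 (Fabp5 and Fabp4 lower as well). Apoe there ranged from -0.83 to -0.65. In astrocytes the count was 0 under each of the 11. In choroid plexus epithelium the count of 1 became 0 with cells thinned to 1000 UMIs, with the mean of per-cell CPM, without the 2% of cells highest for the gene and without Ttr in the total. The Abca1 ratio was 1.44 (-0.24 to 3.34) when thinned, with too few UMIs left to pass the filter on low counts, and it kept its sign throughout. In oligodendrocytes the count of 0 became 1 with classes from clusters and with the mean of per-cell CPM (Clu lower in both, at -1.58 under clusters) and with no filter (Fabp7 lower). In border cells the count of 1 became 0 with up to 30% mitochondrial UMIs, with thinning and without the highest cells, and 2 with the stricter gate (Clu lower at -0.83 and Apod higher at 1.23). The Apod ratio was 0.58 with up to 30% mitochondrial UMIs, against 0.59 as reported. Thinned it was 0.54, and 0 genes passed the count filter there, so none could be called. The cause of the other changes was not tested. Over all 24 ratios and 11 settings, 231 of 264 values stayed within the counting interval of the reported one and 33 left it. None of the 3 called ratios reversed, and 14 of 24 ratios kept their sign in all settings. The setting with no filter on low counts cannot change a ratio, so its 24 values are among the 231 by design. Leaving Ttr out of the total hardly moved any ratio outside choroid plexus epithelium. Thinned to 1000 UMIs, Fabp7 in astrocytes stood at 0.26 (-0.58 to 1.07), an interval that holds the reported -0.42. No paired analysis was possible because there is 1 library per genotype and the labels give no replicate numbers. The class with the highest level of each gene was the same with classes from clusters, but the place of pericytes was not. Those of the IL34LacZ/+ library were then at 1731 CPM for Apoe, 595 for Clu, 33.5 for Abca1 and 33.5 for Mfsd2a. By the gate these levels were 117, 11.7, 11.7 and 0 CPM. Apod and Abcg1 were lower than by the gate, at 25.2 and 21.0 CPM. Depth limits Abcg1, Fabp4 and Fabp5 outside their main classes, and every gene in pericytes.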

Other observations

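Small classes outside the comparison also held these genes, values for the IL34LacZ/+ library standing first. In fibroblast-like cells (18 and 21 cells) Apoe was at 1768 and 1693 CPM and Abca1 at 551 and 198 CPM. The Abca1 levels came from 95 and 42 UMIs, and 1 cell held 26.3% of those of the IL34LacZ/+ library. Abca1 thus met the call rule as lower in the IL34LacZ/LacZ-labelled library, in a class under the limit of 20 cells. Clu in fibroblast-like cells was at 40.6 and 169.8 CPM, from 7 and 36 UMIs, 30 of the latter in 1 cell. In microglia-like cells (43 and 10 cells) Apoe was at 989.8 and 1479 CPM (log2 ratio 0.58, -0.13 to 1.24), and Abca1 gave 36 UMIs and 3.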
